A study of Mus musculus with 23 samples.

Results

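Interleukin-33 (Il33), its receptor gene Il1rl1 and 8 further cytokine genes, Il1a, Il1b, Il18, Il6, Il11, Lif, Tnf and Il34, were followed across the first wave of spermatogenesis in the mouse testis and in cultured explants of the prepubertal testis. These 10 genes are 10 of the 27466 genes in the count table, and they form a set of inflammatory cytokine genes with the members chosen by their CPM over ages and culture days, since some were known to differ between culture and testis. Their levels by age and culture day are therefore given as a description, without a test. Testes came from CD-1 mice aged 6.5 or 10.5 days postpartum (dpp) and from older mice of 22.5 or 36.5 dpp. Explants were cut from 6.5 dpp testes, either fresh or after controlled slow freezing (CSF) and thawing, and were cultured in a serum-replacement medium with retinol for 4, 16 or 30 days (D4, D16, D30), so that D4 matches 10.5 dpp, D16 matches 22.5 dpp and D30 matches 36.5 dpp in age. Explants of a replicate were pooled, and their necrotic centre was removed before RNA extraction. Culture, medium, retinol and cutting differ together from the testis in vivo and cannot be told apart.

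Poly(A) RNA was sequenced in 23 libraries, of which 21 were used, with 28351546 to 69029328 counts each. From 6.5 dpp testes there were 1 fresh and 3 CSF libraries. The older testes gave 3 libraries each for 10.5 and 22.5 dpp and 2 for 36.5 dpp, and the cultures gave 3 for D4, 2 for D16 and, with 3 from fresh and 1 from CSF tissue, 4 for D30. The library labelled 6.5 dpp fresh replicate 1 was left out because it resembles cultured tissue, and fresh replicate 3 because it differed from fresh replicate 2 in 0 genes. The 6.5 dpp CSF replicate 3 stood apart from its group, with 12.2 CPM (read counts scaled to a common library size) of Il18 against at most 3.19 in the other 3 libraries. All levels below are CPM, which do not correct for the length of a gene, so levels are compared between libraries and not between genes. Markers of macrophages, endothelial cells, fibroblasts and peritubular cells, Leydig cells and germ cells were detected at every age and culture day, while mast cell markers summed to at most 1.25 CPM and neutrophil markers to at most 2.50 CPM in any library. In such whole-tissue libraries fewer cells of a type and less RNA per cell cannot be told apart.

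As background, the interleukin-1 (IL-1) family holds IL-33, IL-1α, IL-1β and IL-18. IL-33 is kept in the nucleus of endothelial, epithelial and stromal cells and acts as an alarm signal when cells are damaged, through the receptor ST2 (Il1rl1) and the shared accessory chain IL-1RAcP (Il1rap). IL-1α acts likewise through IL-1R1, whereas IL-1β and IL-18 are made as inactive precursors that caspase-1 cleaves in the inflammasome. IL-6, IL-11 and leukemia inhibitory factor (LIF) signal through receptors that share gp130 (Il6st), with STAT3 as the downstream transcription factor and SOCS3 as its feedback inhibitor. Tumor necrosis factor (TNF) is a macrophage product that acts through TNFR1 and TNFR2, and IL-34 shares with CSF-1 the receptor CSF1R, on which macrophages depend. In the testis, resident macrophages lie in the interstitium and around the tubules, and IL-1α is known as a product of the seminiferous epithelium.

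The bases before the annotated starts of 5 of the members that were higher in culture at 1 stage or more are shown, since sequence motifs were searched there. They are Il33, the 3 members more than 2-fold higher at D16 (Il6, Lif, Tnf) and Il11, of which the start that holds a motif is printed. The sequences are from RefSeq on build GRCm38.p6, end 1 base before the start and are written 5′ to 3′ on the strand of the gene, with motif matches in capitals (position -1 is the last base). Il33 has 2 annotated starts, and counts per gene do not tell which one was used.
Il33, upstream start (chr19:29924863-29925112, + strand): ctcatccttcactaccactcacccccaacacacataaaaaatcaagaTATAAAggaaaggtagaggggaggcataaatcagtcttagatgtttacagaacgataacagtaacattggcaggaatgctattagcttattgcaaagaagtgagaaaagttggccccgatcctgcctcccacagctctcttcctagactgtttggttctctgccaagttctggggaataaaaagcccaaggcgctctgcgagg
Il33, downstream start (chr19:29945670-29945789, + strand): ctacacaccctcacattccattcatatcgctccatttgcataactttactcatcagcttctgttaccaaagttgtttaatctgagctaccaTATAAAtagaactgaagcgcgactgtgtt
Il6 (chr5:30012864-30013113, + strand): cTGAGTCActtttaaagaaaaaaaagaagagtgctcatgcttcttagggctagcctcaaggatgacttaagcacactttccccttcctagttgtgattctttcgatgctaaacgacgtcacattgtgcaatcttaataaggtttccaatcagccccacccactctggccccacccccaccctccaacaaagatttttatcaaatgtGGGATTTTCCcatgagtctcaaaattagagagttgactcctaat
Lif (chr11:4257318-4257567, + strand): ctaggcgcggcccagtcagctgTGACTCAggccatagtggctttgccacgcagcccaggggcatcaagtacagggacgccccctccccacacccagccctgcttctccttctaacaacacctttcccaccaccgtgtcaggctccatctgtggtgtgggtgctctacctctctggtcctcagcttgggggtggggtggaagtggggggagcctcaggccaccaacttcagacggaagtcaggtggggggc
Tnf (chr17:35202008-35202127, - strand): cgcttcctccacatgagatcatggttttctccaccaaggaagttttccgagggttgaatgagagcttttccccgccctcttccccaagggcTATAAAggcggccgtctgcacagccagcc
Il11, downstream start (chr7:4778142-4778261, - strand): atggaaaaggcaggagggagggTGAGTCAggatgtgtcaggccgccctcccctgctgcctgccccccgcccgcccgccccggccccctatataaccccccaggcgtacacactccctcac

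Of the members, 9 had an entry in the promoter table, with 12 promoters of 300 bases (250 before and 50 after the start). Both strands were searched for AP-1 (TGANTCA), CRE (TGACGTCA), STAT (TTCNNNGAA), the TATA box (TATAAA) and NF-kB, and no motif contains another. The letters TATAAA stood at -29 before the downstream start of Il33, at -203 before its upstream start and at -29 in Tnf. They also stood at -32 in Il1a, at -31 in Il1b and, on the reverse strand, at -175 in Il18. At any position and on either strand, 6 of the 12 promoters held them, against 13.6% of all 32851 promoters. AP-1 was found in 4 promoters, at -249 in Il6, at -228 in Lif, at -98 before the downstream start of Il11 and at -12 in Il1a, against 7.81% of all promoters. The NF-kB motif was found in 1 promoter, that of Il6 at -44, against 4.51% of all promoters. STAT and CRE motifs were found in 0 of the 12, against 8.3% and 1.79%. A match is a description of letters and does not show a bound factor.

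Il33 (Entrez 77125, chromosome 19 from 29925113 to 29960718, GRCm38.p6) was nearly silent in the young testis and was expressed in every cultured library. At 6.5 dpp it had 0.271 CPM in the fresh library and 0.187, 0.243 and 0.0705 CPM in the CSF libraries, from 2 to 13 reads each. At 10.5 dpp it had 0.0674, 0.167 and 0.164 CPM. After 4 days of culture it had 7.38, 7.91 and 5.71 CPM, so that every D4 library exceeded every library of both young ages. The D4 mean was 36.3 times that of the 6.5 dpp libraries and 52.8 times that of the age-matched testis. The D4 explants were cut from fresh tissue, whereas 3 of the 4 libraries of 6.5 dpp were CSF. The fitted log2 fold change was 5.15 (standard error, SE, 0.32) against 6.5 dpp and 5.78 (SE 0.38) against 10.5 dpp.

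In vivo the gene came on later. At 22.5 dpp Il33 had 5.41, 4.21 and 4.58 CPM, a log2 fold change of 5.43 (SE 0.37) over 10.5 dpp. At 36.5 dpp it had 2.20 and 1.65 CPM. The later cultures remained above the testis of their age, with 9.15 and 7.08 CPM at D16 and with 10.6, 12.1 and 9.50 CPM in fresh and 13.7 CPM in CSF tissue at D30. The log2 fold change was thus 5.78 at D4, 0.61 (SE 0.31) at D16 against 22.5 dpp, and 1.94 (SE 0.33) at D30 against 36.5 dpp, with no library of the 2 groups overlapping at any of the 3 stages. Ordered by mean, the levels were D30 (11.5 ± 1.82 CPM, SD, n = 4), D16 (8.12 ± 1.46 CPM, n = 2), D4 (7.001 ± 1.15 CPM, n = 3), 22.5 dpp (4.74 ± 0.615 CPM, n = 3), 36.5 dpp (1.92 ± 0.390 CPM, n = 2), 6.5 dpp (0.193 ± 0.0889 CPM, n = 4) and 10.5 dpp (0.133 ± 0.0566 CPM, n = 3). Only the neighbours D16 and D4, and 6.5 and 10.5 dpp, overlapped in their libraries.

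Markers of the cells known to hold IL-33 were summed at each stage. A marker was called at 2-fold or more with an edgeR adjusted p under 0.05. By this rule 3.45%, 8.83% and 25.2% of all genes tested were higher in culture at D4, D16 and D30. The shares called lower were 2.43%, 8.24% and 29.8%. The 5 endothelial markers summed to 184 to 210 CPM at 10.5 dpp and to 230 to 254 CPM at D4, with 1 marker called higher and 1 lower. In vivo they then summed to 40.5 to 63.9 CPM at 22.5 dpp and 18.7 to 20.5 CPM at 36.5 dpp, where Il33 was above its level in the young testis. The 7 fibroblast and peritubular markers summed to 2873 to 3165 CPM at 10.5 dpp and to 3208 to 4133 CPM at D4, with 0 of 7 called. At D16 the endothelial markers summed to 209 to 280 CPM (4 of 5 called higher than at 22.5 dpp) and the fibroblast and peritubular markers to 1664 to 1733 CPM against 755 to 1208 CPM (3 of 7 called higher). At D30 the endothelial markers (141 to 186 CPM, 4 of 5 called higher than at 36.5 dpp and 1 lower) and the fibroblast and peritubular markers (1363 to 2109 CPM against 183 to 271 CPM, 7 of 7 called higher) stood above those of the testis, whose 7 germ cell markers summed to 14661 to 18383 CPM against 914 to 2551 CPM at D30, 5 of 7 called lower in culture. The 5 Sertoli cell markers summed to 1750 to 1843 CPM at D4 against 1848 to 1921 CPM at 10.5 dpp (0 of 5 called), to 1223 to 1316 CPM at D16 against 375 to 610 CPM (3 called higher) and to 992 to 1399 CPM at D30 against 126 to 134 CPM (5 called higher). Of the 5 Leydig cell markers 3 were lower at D4 (291 to 509 CPM against 988 to 1144 CPM), 4 at D16 (213 to 238 CPM against 835 to 933 CPM) and 3 at D30 (317 to 571 CPM against 1549 to 1925 CPM), with 0 higher. The part of these cell types in the differences of Il33, and of every other gene compared between culture and testis, was not tested.

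**Figure D1:**
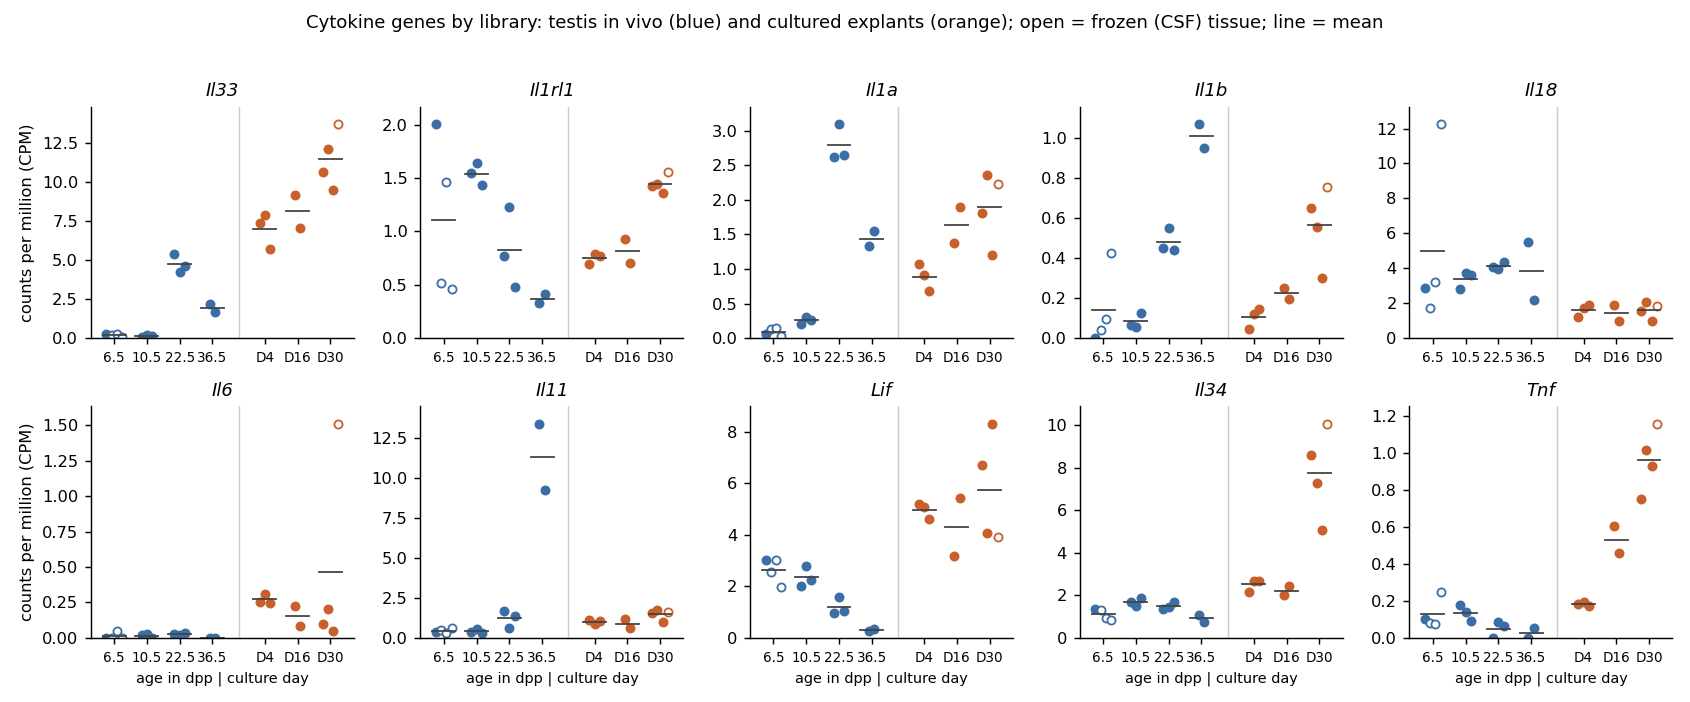
Level of each of the 10 cytokine genes in CPM in the 21 libraries, by age in days postpartum (blue, in vivo) and by culture day (orange), with open circles for frozen (CSF) tissue and a line at the mean. Il33 lies at 0.271 CPM or below in the young testis and between 5.71 and 13.7 CPM in culture, Il11 stands out at 36.5 dpp, and Il34 and Tnf are highest at D30.

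The receptor gene Il1rl1 (ST2, Entrez 17082, chromosome 1 from 40404864 to 40465418) behaved differently from its ligand. It had 1.55, 1.64 and 1.44 CPM at 10.5 dpp and 0.697, 0.791 and 0.768 CPM at D4, a log2 fold change of -0.95 (SE 0.42) with all 3 cultured libraries below those of the testis. At 22.5 dpp it had 0.766, 1.23 and 0.474 CPM and at D16 0.930 and 0.699 CPM, which overlap. At 36.5 dpp it had 0.327 and 0.411 CPM, whereas at D30 it had 1.42, 1.44 and 1.36 CPM in fresh and 1.56 CPM in CSF tissue, which gave a fitted log2 change of 1.32 (SE 0.50). Culture thus lay below the testis at D4 and above it at D30, and the opposite directions were not tested against each other. At 6.5 dpp the 4 libraries spread from 0.459 to 2.00 CPM. The accessory chain gene Il1rap, which completes the IL-33 and the IL-1 receptors, passed in 0 of the 3 culture comparisons, with log2 fold changes of -0.19 (SE 0.20, edgeR adjusted p = 0.721), -0.13 (SE 0.22, adjusted p = 0.687) and -0.25 (SE 0.21, adjusted p = 0.306).

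Taking a member as higher or lower in culture where the fitted change reached 2-fold and no library of the 2 groups overlapped, 5 of 10 were higher and 0 lower at D4 (Il33, Il6, Il1a, Il11, Lif), against 5.63% and 4.95% of the 19255 genes tested. At D16, 3 were higher (Il6, Lif, Tnf) and 2 lower (Il1b, Il18), against 10.8% and 11.7%. At D30, 6 were higher (Il33, Il1rl1, Il6, Il34, Lif, Tnf) and 3 lower (Il1b, Il11, Il18), against 26.6% and 24.9%. Il6 and Lif were higher at all 3 stages. The members were chosen with these contrasts in view, so nothing is read from their counts beside those of all genes. The median log2 fold change of the 10 was 0.91 at D4, 0.11 at D16 and 1.63 at D30, also with Il6 set at its bound at D30, beside -0.01, -0.08 and -0.03 over all genes. All 10 passed the filter on low counts, Il6 and Tnf only through cultured libraries. Scaling by library size alone, without the TMM factors, raised the median of all genes by 0.64 on the log2 scale at D30 and by 0.15 at D16, and moved it by -0.09 at D4, and the direction of every member counted as higher or lower was the same under it. Under this scaling Il1b at D30 had a log2 fold change of -0.83, under 2-fold.

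The same rule was applied between ages and between culture days. In vivo 1 of 10 was higher and 0 lower at 10.5 than at 6.5 dpp (Il1a, against 2.04% and 1.69% of all genes), 4 were higher (Il33, Il1a, Il1b, Il11) and 1 lower (Tnf) at 22.5 than at 10.5 dpp (27.4% and 19.6%), and 2 were higher (Il1b, Il11) and 1 lower (Lif) at 36.5 than at 22.5 dpp (20.6% and 19.8%), leaving out Il6, whose 0 and 3 summed reads are both at or under the floor. The lower count of Tnf rests on few reads, with 0, 4 and 2 at 22.5 dpp and 8, 5 and 5 at 10.5 dpp. Its log2 fold change was -1.08 (SE 0.70). Against the 6.5 dpp libraries, 5 were higher and 0 lower at D4 (Il33, Il6, Il1a, Il11, Il34, against 8.27% and 6.88%). Of the 4 libraries of 6.5 dpp, 3 were CSF, while the D4 explants were cut from fresh tissue. From D4 to D16 Il1b and Tnf were higher (2 of 10, against 18.1%) and from D16 to D30 Il1b and Il34 (2 of 10, against 5.16%), with 0 lower in both (5.56% and 1.12%).

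**Figure D2:**
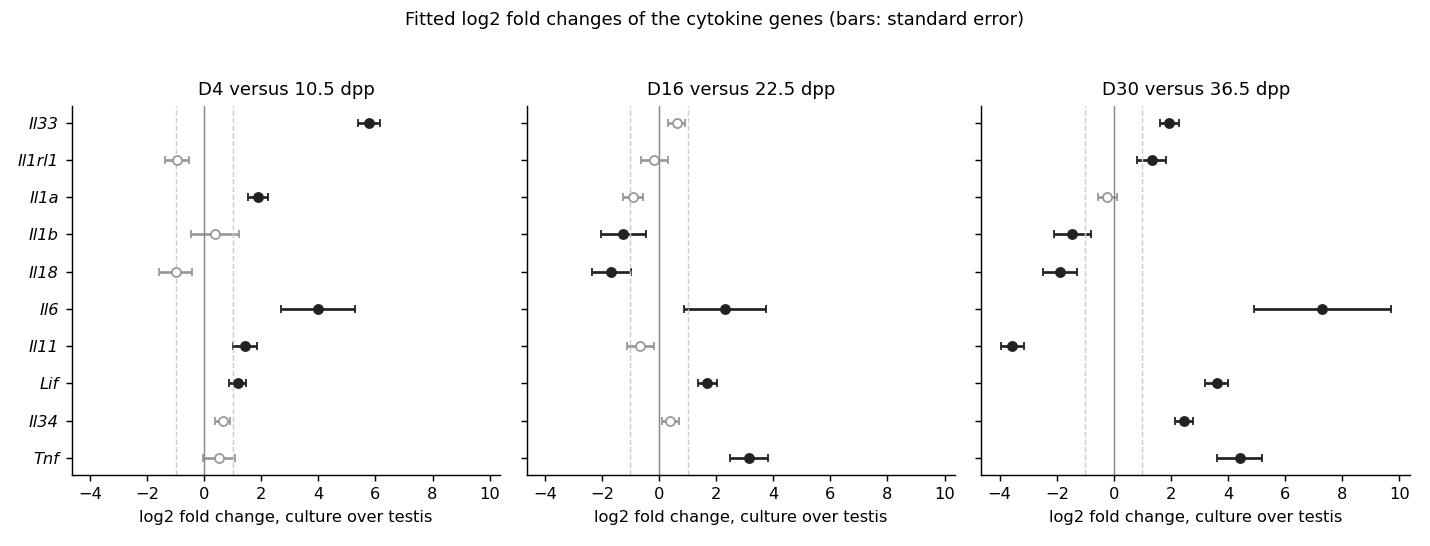
Fitted log2 fold change (x axis) of culture over the age-matched testis for each cytokine gene at the 3 stages, with bars of 1 standard error, filled where the change reached 2-fold without overlap of libraries and dashed lines at 2-fold. Il33 has the furthest point of D4 at 5.78, Il11 the furthest on the lower side at D30 at -3.56, and the point of Il6 at D30 rests on a testis group at 0 reads and that of Tnf on 2 reads, so neither is a bound.

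Among the other IL-1 family ligands, Il1a, the gene of IL-1α, was higher in the explants at D4 and not later. Il1a (Entrez 16175, chromosome 2 from 129299609 to 129310186) had 0.0626 CPM in fresh and 0.125, 0.146 and 0.0353 CPM in CSF tissue at 6.5 dpp and 0.202, 0.306 and 0.255 CPM at 10.5 dpp. At D4 it had 1.07, 0.911 and 0.681 CPM, a log2 fold change of 1.88 (SE 0.35) over 10.5 dpp. In vivo it then reached 2.61, 3.09 and 2.66 CPM at 22.5 dpp, its highest level at any stage. At D16 it had 1.38 and 1.90 CPM, below all 3 libraries of 22.5 dpp, with a log2 fold change of -0.92 (SE 0.35). At D30 it had 1.81, 2.36 and 1.21 CPM in fresh and 2.24 CPM in CSF tissue and overlapped the 1.34 and 1.54 CPM of 36.5 dpp. The lncRNA Gm14023 lies on the opposite strand of Il1a, and its mean level was 0.545 CPM at 10.5 dpp, 3.84 CPM at 22.5 dpp, 0.526 CPM at D4 and 1.84 CPM at D16.

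Il1b, the gene of IL-1β (Entrez 16176, chromosome 2 from 129364569 to 129371164), was low throughout, at 0 to 37 reads a library. It had 0.449, 0.548 and 0.443 CPM at 22.5 dpp and 1.07 and 0.952 CPM at 36.5 dpp, above the 0.251 and 0.197 CPM of D16 and the 0.652, 0.557, 0.302 and 0.753 CPM of D30. The log2 fold changes were -1.25 (SE 0.80) at D16 and -1.46 (SE 0.65) at D30, while at D4 the libraries overlapped. Within culture every D30 library lay above both D16 libraries, and these above the 0.0464, 0.1199 and 0.145 CPM of D4. The antisense lncRNA Il1bos, which shares bases with Il1b, had a mean of 0.139 CPM at 10.5 dpp and 0.269 CPM at D4. Its mean was 1.85 CPM at 22.5 dpp and 1.04 CPM at D16, lower in culture as for Il1b. It was 0.797 CPM at 36.5 dpp and 1.082 CPM at D30, the opposite direction to Il1b. The part of Il1bos reads in the Il1b counts was not tested.

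Il18 (Entrez 16173, chromosome 9 from 50554700 to 50581841) was the member that was lower in culture at each stage. It had 2.78, 3.75 and 3.58 CPM at 10.5 dpp, 4.09, 3.93 and 4.33 CPM at 22.5 dpp and 5.52 and 2.19 CPM at 36.5 dpp. The cultured libraries had 1.18, 1.73 and 1.87 CPM at D4, 1.89 and 0.983 CPM at D16 and 0.957 to 2.05 CPM at D30, so none of the 9 reached the testis of its age. The log2 fold changes were -0.99 (SE 0.58), -1.68 (SE 0.68) and -1.88 (SE 0.59). That at D30 rests in part on 36.5 dpp replicate 1, without which it was -1.11. The same library had 46.2 CPM of Tex12, a meiotic gene that overlaps Il18 on the opposite strand, against 9.21 CPM in the other library of this age. In culture Tex12 was as high with less Il18. The D16 libraries had 62.9 and 21.6 CPM of Tex12 with 1.89 and 0.983 CPM of Il18. At D30 Tex12 ran from 10.3 to 58.8 CPM, with Il18 at 0.957 to 2.05 CPM. The part of Tex12 reads in the Il18 counts was not tested.

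Some receptors and inhibitors of the IL-1 family were higher in culture than in the testis of the same age. Il1rl2, the receptor of IL-36, was higher at all 3 stages, by a log2 fold change of 1.14 (SE 0.24, adjusted p = 0.00577) at D4, 1.86 (SE 0.27, adjusted p = 0.00017) at D16 and 2.63 (SE 0.32, adjusted p = 2.74e-06) at D30. Its level in culture was itself lower at each later day, with means of 8.85, 4.92 and 3.35 CPM, while the testis had 4.27 CPM at 10.5 dpp, 1.22 CPM at 22.5 dpp and 0.345 CPM at 36.5 dpp. Il1rn, the gene of the IL-1 receptor antagonist, had 0.528 to 0.818 CPM at 10.5 dpp and 0.594 to 1.17 CPM at D4, and in vivo it was nearly absent later, with 0 and 2 reads at 36.5 dpp, while D30 held 310 reads over 4 libraries at 1.38 to 2.41 CPM. The ratio of summed reads was 70.1 (exact 95% interval 19.2 to 581, counting error only), and the change passed the test (adjusted p = 6.38e-05). Its fitted log2 value was 4.51 without 36.5 dpp replicate 1 and 9.39 without replicate 2. At D16 Il1rn also passed (log2 fold change 2.37, SE 0.65, adjusted p = 0.015), a call that was lost without replicate 1 (adjusted p = 0.064) or 3 (adjusted p = 0.0609) of 22.5 dpp or without replicate 2 of D16 (adjusted p = 0.0818), while without replicate 2 of 22.5 dpp the log2 fold change was 4.51. Il1r1, the signalling receptor of IL-1, was higher at D30 only just past 2-fold (log2 fold change 1.07, SE 0.21, adjusted p = 0.000233) and had 0.88 without 36.5 dpp replicate 2. This call was lost in 3 of 16 alternatives, also with RLE scaling factors and with DESeq2, and the log2 fold changes ran from 0.80 to 1.70. Sigirr, an inhibitory receptor of the family, was lower at D30 (log2 fold change -2.41, SE 0.32, adjusted p = 7.31e-06), with 1.06 to 1.49 CPM in culture and 3.03 and 5.94 CPM at 36.5 dpp. The decoy receptor gene Il1r2 did not pass, with log2 fold changes of 0.53, 1.56 and 1.34 (adjusted p = 0.684, 0.06 and 0.0715), and Il18r1, a chain of the IL-18 receptor, was at 1 and 3 summed reads at D16 and 22.5 dpp. The other chain, Il18rap, was called higher at D16 (log2 fold change 2.86, SE 0.81, adjusted p = 0.018) from 19 and 6 reads in the 2 cultured libraries, a call lost without 22.5 dpp replicate 1 (adjusted p = 0.0666) or D16 replicate 1 (log2 fold change 1.65, adjusted p = 0.214), and was 3.54 without D16 replicate 2. It was also called at D30 (adjusted p = 0.0376, 37 summed reads against 2, ratio 8.37, exact 95% interval 2.16 to 71.7), a call lost without either 36.5 dpp library, D30 fresh replicate 2 or D30 CSF replicate 1 (adjusted p = 0.0553 to 0.157). Over all alternatives run, the Il18rap call was lost in 4 of 13 at D16 and in 10 of 15 at D30.

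Counted as lists, the IL-1 family ligands and receptors other than the members had 1 of 8 tested genes higher at D4, 3 higher at D16 and 4 higher with 1 lower at D30, with median log2 fold changes of 0.45, 1.13 and 1.20. Of all genes tested, 3.45%, 8.83% and 25.2% were called higher and 2.43%, 8.24% and 29.8% lower at these stages. Of 8 tested inflammasome and processing genes, 1 was lower at D4, 3 were higher at D16, and 6 were higher and 1 lower at D30. Among these calls, that of Pycard at D16 (log2 fold change 1.00, SE 0.35, edgeR adjusted p = 0.0442) was lost in 11 of 15 alternatives. Caspase-1 (Casp1), which cleaves IL-1β and IL-18, was lower at D4 (log2 fold change -1.82, SE 0.45, adjusted p = 0.0162), with 0.325 to 0.384 CPM against 1.15 to 1.45 CPM. Its adjusted p was 0.0520 to 0.0729 when replicate 1 or 2 of 10.5 dpp or any 1 of the D4 libraries was left out. Casp8, the caspase of death receptors, was higher at D16 (log2 fold change 1.60, SE 0.25, adjusted p = 0.000319) and D30 (3.24, SE 0.29, adjusted p = 1.45e-07). Gsdmd, the pore protein through which IL-1β leaves the cell, was higher at D16 (2.03, SE 0.28, adjusted p = 0.000112) and D30 (2.61, SE 0.31, adjusted p = 2.35e-06). For Casp8 and Gsdmd the cultured levels of 34.4 to 58.3 CPM and 17.7 to 37.6 CPM lay near the 37.8 to 40.7 CPM and 29.7 to 32.9 CPM of 10.5 dpp, while the testis had 2.13 to 3.53 CPM and 3.03 CPM in both libraries at 36.5 dpp. Of the 8 adaptors of IL-1 and Toll receptors, 0 were called at D4, 1 was lower at D16, and at D30 Irak1 and Traf6, which pass the signal to NF-kB, were higher by log2 fold changes of 2.25 and 1.73 (adjusted p = 2e-06 and 3.49e-05), over means of 6.81 and 5.44 CPM at 36.5 dpp. In culture Irak1 had means of 73.9 CPM at D4 and 50.9 CPM at D30 and Traf6 of 42.1 and 28.4 CPM, beside 73.2 and 47.5 CPM at 10.5 dpp. Irak3, an inhibitor of the same step, was lower at D30 (log2 fold change -1.01, adjusted p = 0.00505) and was under 2-fold without D30 fresh replicate 3 or D30 CSF replicate 1 (-0.85 and -0.93). Over all alternatives run, this call was lost in 7 of 16, with log2 fold changes from -1.27 to -0.39. The adaptor called lower at D16 was also Irak3, and that call was lost in 6 of 15 alternatives.

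Il6 (Entrez 16193, chromosome 5 from 30013114 to 30019975) was detected in every cultured library and hardly in vivo. The 12 in vivo libraries held 7 reads in all, with 0 in both libraries of 36.5 dpp. At D4 it had 0.255, 0.312 and 0.246 CPM from 11, 13 and 17 reads, and the ratio of summed reads over 10.5 dpp (41 against 2) was 18.1 (exact 95% interval 4.69 to 154). At D16 it had 0.226 and 0.0874 CPM, and the ratio over 22.5 dpp (13 reads against 3) was 5.83 (interval 1.60 to 31.9). At D30 the CSF library had 1.51 CPM from 60 reads, and the 3 fresh libraries had 0.0966, 0.203 and 0.0504 CPM from 4, 8 and 2 reads. Scaled by library totals alone, the level at D30 was at least 11.2-fold higher than at 36.5 dpp, taking 3 reads over the group as the floor. Without the CSF library it was at least 2.81-fold higher on this scale. The TMM factors, 0.661 and 0.645 at 36.5 dpp against 0.980 to 1.07 at D30, would lower both values. The mean of the 3 fresh D30 libraries, 0.117 ± 0.0781 CPM (SD), was below that of D4, 0.271 ± 0.0354 CPM (SD, n = 3), with no overlap.

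Lif (Entrez 16878, chromosome 11 from 4257568 to 4272514), the gene of a cytokine known for keeping stem cells undifferentiated, was lower in the older testis and stayed high in culture. It had 3.03 CPM in fresh and 2.54, 3.04 and 1.98 CPM in CSF tissue at 6.5 dpp, 2.00, 2.78 and 2.26 CPM at 10.5 dpp, 0.951, 1.60 and 1.04 CPM at 22.5 dpp and 0.267 and 0.334 CPM at 36.5 dpp. The explants had 5.20, 5.06 and 4.62 CPM at D4, 3.19 and 5.42 CPM at D16, and 6.71, 4.08 and 8.29 CPM in fresh and 3.92 CPM in CSF tissue at D30. Every cultured library was above every in vivo library. The log2 fold changes were 1.17 (SE 0.29), 1.69 (SE 0.32) and 3.60 (SE 0.39).

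Il11 (Entrez 16156, chromosome 7 from 4772373 to 4782907) went the other way at the last stage, with 13.3 and 9.21 CPM at 36.5 dpp against 1.57, 1.75 and 0.982 CPM in fresh and 1.61 CPM in CSF tissue at D30, which gave a fitted log2 change of -3.56 (SE 0.40). At D4 it had 1.11, 0.887 and 1.03 CPM against 0.359, 0.556 and 0.291 CPM at 10.5 dpp, a log2 fold change of 1.43 (SE 0.43), and at D16 the libraries overlapped those of 22.5 dpp. The opposite directions at D4 and D30 were not tested against each other. The upstream part of Il11 shares 359 bases with Tmem190, a protein-coding gene on the opposite strand (chromosome 7 from 4782549 to 4784341). Tmem190 had 56.0 and 77.8 CPM at 36.5 dpp, 2.08 to 9.77 CPM at 22.5 dpp and 5.74 to 11.9 CPM at D30, and at most 0.418 CPM at 6.5 dpp, 10.5 dpp and D4. Both genes were thus highest at 36.5 dpp, while at D4 Il11 was above its level at 10.5 dpp with Tmem190 at 0.0697 to 0.174 CPM. The library kit keeps the strand, but the strand setting of the read counting is not given in the sources used here, and the part of Tmem190 reads in the Il11 counts was not tested.

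**Figure D3:**
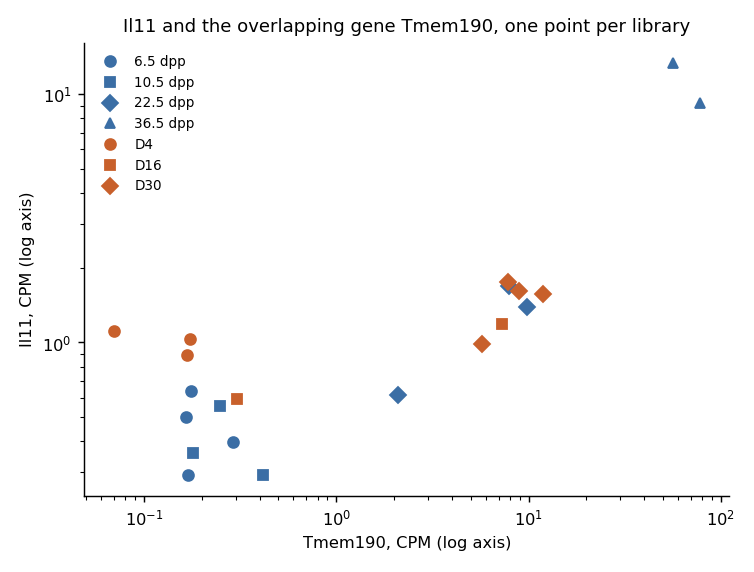
Il11 (y axis) against its overlapping neighbour Tmem190 (x axis) in CPM on log axes, 1 point for each of the 21 libraries, blue in vivo and orange in culture. The 2 libraries of 36.5 dpp are highest for both genes, and the 3 D4 libraries have 0.887 to 1.11 CPM of Il11 with at most 0.174 CPM of Tmem190.

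Of the IL-6 family, the oncostatin M receptor and 2 genes downstream of the receptors were higher at D4. None of Il6ra, Il6st (gp130), Il11ra1 and Lifr passed at D4, with log2 fold changes of 0.05, 0.10, 0.08 and 0.38 and adjusted p of 0.988, 0.932, 0.933 and 0.587. Osmr, the oncostatin M receptor, had 31.0, 27.5 and 21.7 CPM at D4 against 6.08, 5.90 and 7.04 CPM at 10.5 dpp (log2 fold change 2.17, SE 0.23, adjusted p = 7.47e-06). Socs3 had 30.3, 40.8 and 38.6 CPM against 11.1, 10.6 and 12.1 CPM (1.78, SE 0.22, adjusted p = 3.46e-05), and Stat3 had 234 to 268 CPM against 117 to 119 CPM (1.20, SE 0.22, adjusted p = 0.00201). Oncostatin M itself (Osm) was lower (log2 fold change -2.28, SE 0.61, adjusted p = 0.0267), which did not pass when either replicate 1 or 2 of 10.5 dpp or any 1 D4 library was left out (adjusted p = 0.0720 to 0.125). At D16 Osmr (1.35, SE 0.25, adjusted p = 0.0011) and Socs3 (2.06, SE 0.24, adjusted p = 1.69e-05) were again called higher.

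At D30, 6 of 13 tested genes of the IL-6 family list were higher and 2 lower, against 3 and 1 at D4 and 2 and 1 at D16. The shares of all genes called higher and lower were 25.2% and 29.8% at D30, 3.45% and 2.43% at D4 and 8.83% and 8.24% at D16. Il6st was higher by 2.53 (SE 0.32, adjusted p = 4.26e-06), Socs3 by 3.92 (SE 0.29, adjusted p = 2.37e-08), Stat3 by 2.01 (SE 0.26, adjusted p = 4.58e-06) and Osmr by 2.05 (SE 0.27, adjusted p = 5.47e-06) on the log2 scale. The testis of 36.5 dpp was low in Il6st, with a mean of 24.0 CPM against 359 CPM at 10.5 dpp, while the cultures had 361 CPM at D4 and 217 CPM at D30. For Stat3 the means were 27.5 CPM at 36.5 dpp, 118 CPM at 10.5 dpp, 255 CPM at D4 and 174 CPM at D30. Il6ra, the receptor chain that binds IL-6, was higher by 1.30 (SE 0.35, adjusted p = 0.0034) and had 0.99 with an adjusted p of 0.0693 without 36.5 dpp replicate 1. Osm was at 0 in both libraries of 36.5 dpp and, scaled by library totals without TMM factors, at least 3.92-fold higher at D30 (26 reads in all). Il11ra1 and Lifr had log2 fold changes of 0.36 (SE 0.25, adjusted p = 0.204) and 0.76 (SE 0.32, adjusted p = 0.044), the latter under 2-fold. The list medians were 0.05 at D4, 0.03 at D16 and 0.76 at D30.

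Tnf (Entrez 21926, chromosome 17 from 35199367 to 35202007) was higher the longer the explants were cultured. It had at most 0.247 CPM in any in vivo library, and 0 and 2 reads at 36.5 dpp. The D4 libraries, with 0.186, 0.192 and 0.174 CPM, overlapped the 0.180, 0.139 and 0.0909 CPM of 10.5 dpp. At D16 it had 0.603 and 0.459 CPM against 0, 0.0877 and 0.0632 CPM at 22.5 dpp, a log2 fold change of 3.16 (SE 0.66), or 3.85 without 22.5 dpp replicate 2. At D30 it had 0.749, 1.01 and 0.932 CPM in fresh and 1.16 CPM in CSF tissue, and the ratio of summed reads over 36.5 dpp (154 against 2) was 34.8 (exact 95% interval 9.48 to 290).

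Both TNF receptors were higher in culture than in the testis at D30. Tnfrsf1b (TNFR2, found mainly on immune and endothelial cells) had 6.42, 6.12 and 6.15 CPM at 10.5 dpp and 9.75, 14.0 and 14.2 CPM at D4, a log2 fold change of 1.11 (SE 0.25, adjusted p = 0.00765), had 0.60 at D16 (SE 0.27, adjusted p = 0.105) and was higher by 2.30 at D30 (SE 0.29, adjusted p = 3.85e-06). Tnfrsf1a (TNFR1, found on most cells) had log2 fold changes of 0.54 at D4 (SE 0.21, adjusted p = 0.154), 1.17 at D16 (SE 0.24, adjusted p = 0.00227, and 0.0572 without D16 replicate 2) and 2.30 at D30 (SE 0.26, adjusted p = 1.11e-06), with means of 219 CPM at D4, 144 CPM at D30 and 18.6 CPM at 36.5 dpp. Tnfaip3 (A20), an inhibitor of NF-kB signalling, was higher at D4 (1.17, SE 0.22, adjusted p = 0.00228), had 0.90 at D16 (SE 0.24, adjusted p = 0.0141, under 2-fold) and was higher at D30 (2.08, SE 0.26, adjusted p = 3.61e-06). Adam17, the protease that sheds TNF from the cell surface, was higher at D30 by 1.43 (SE 0.20, adjusted p = 1.16e-05), with a mean of 94.2 CPM against 22.3 CPM at 36.5 dpp and 121 CPM at D4. Of the 9 genes of the TNF list, 2 were higher at D4, 2 at D16 and 8 at D30, and 0 were lower at any of these stages. Beside them, 3.45%, 8.83% and 25.2% of all genes tested were called higher and 2.43%, 8.24% and 29.8% lower.

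**Figure D4:**
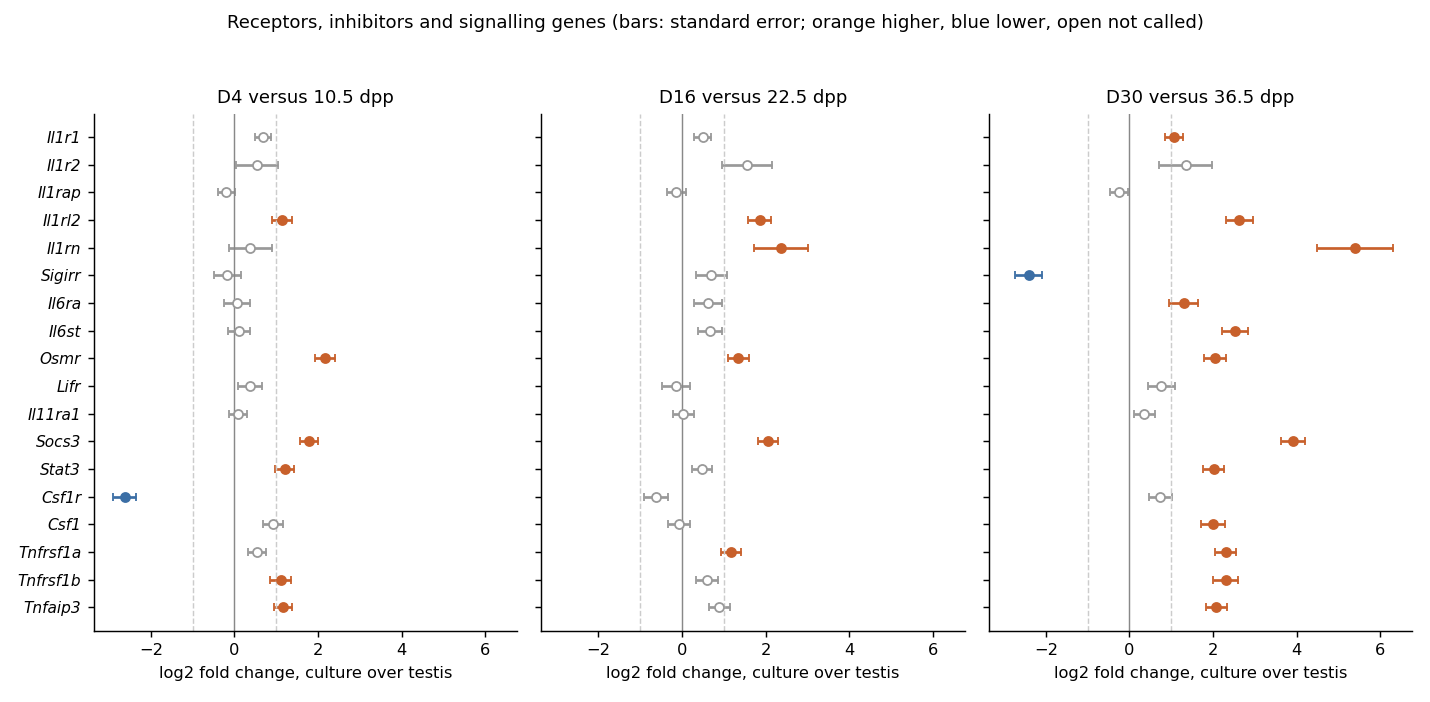
Log2 fold change (x axis) of culture over the age-matched testis for 18 receptor, inhibitor and signalling genes at the 3 stages, with bars of 1 standard error, orange where higher and blue where lower at 2-fold or more with an adjusted p under 0.05, open otherwise, and dashed lines at 2-fold. Osmr and Socs3 are higher at all 3 stages, Csf1r is lower at D4 alone, and the point of Il1rn at D30 rests on 2 reads in the testis.

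Il34 (Entrez 76527, chromosome 8 from 110741829 to 110805949) was highest at the end of culture. In vivo it had 0.847 to 1.36 CPM at 6.5 dpp, 1.71, 1.502 and 1.87 CPM at 10.5 dpp, 1.37, 1.47 and 1.71 CPM at 22.5 dpp and 1.099 and 0.746 CPM at 36.5 dpp. In culture it had 2.18, 2.66 and 2.69 CPM at D4 and 2.01 and 2.43 CPM at D16, above the testis of the same age but by under 2-fold, with log2 fold changes of 0.65 (SE 0.26) and 0.39 (SE 0.29). At D30 it had 8.62, 7.27 and 5.06 CPM in fresh and 10.0 CPM in CSF tissue, which gave a fitted log2 change of 2.44 (SE 0.31) over 36.5 dpp and of 1.84 (SE 0.30) over D16.

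The shared receptor and the second ligand had their own courses. Csf1r had 3.53, 4.46 and 4.09 CPM at D4 against 24.6, 30.9 and 23.9 CPM at 10.5 dpp, a log2 fold change of -2.63 (SE 0.27, adjusted p = 5.36e-06). It had 23.7 and 32.8 CPM at D16 (-0.62, SE 0.29, adjusted p = 0.122) and 29.4, 28.1 and 57.3 CPM in fresh and 37.6 CPM in CSF tissue at D30 (0.74, SE 0.28, adjusted p = 0.0263, under 2-fold). The difference between the culture effects was called both at D16 against D4 (2.02, SE 0.38, adjusted p = 0.00429) and at D30 against D4 (3.37, SE 0.40, adjusted p = 1.07e-05). Of the 9 macrophage markers 6 were lower at D4 and 0 higher, with sums of 67.0 to 71.8 CPM against 142 to 184 CPM at 10.5 dpp, 1 was lower at D16 (178 to 195 CPM against 193 to 311 CPM) and 3 were higher at D30 (219 to 297 CPM against 89.4 to 112 CPM). Among all genes tested, 2.43% were called lower at D4, 8.24% lower at D16 and 25.2% higher at D30. The part of macrophages in the levels of Csf1r, Tnf and Il34 was not tested. Csf1, which fibroblasts and endothelial cells also make, was higher at D30 by 2.00 (SE 0.28, adjusted p = 1.07e-05) over a testis at 5.11 and 5.76 CPM.

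**Figure D5:**
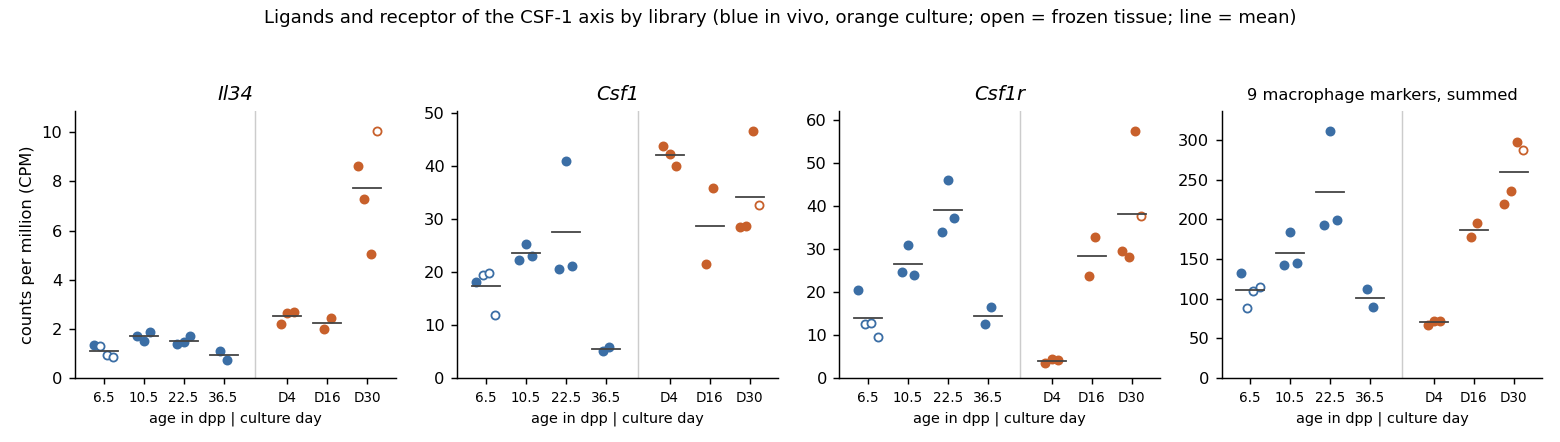
Il34, Csf1 and Csf1r, and the sum of 9 macrophage markers, in CPM in the 21 libraries by age in dpp (blue) and culture day (orange), with open circles for frozen tissue and a line at the mean. Csf1r and the marker sum are lowest at D4, where Il34 is above its level at 10.5 dpp, and Il34 reaches 5.06 to 10.0 CPM at D30.

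Over the 8 lists, 62 of 79 partner genes were tested. At D4 6 were higher and 3 lower, at D16 10 and 2, and at D30 29 and 7, beside the shares of all genes given above. The culture effect differed from that at D4 for 5 genes upward and 2 downward at D16 and for 25 upward and 5 downward at D30, against 4.74% and 4.09%, and 22.5% and 18.7%, of all genes. Scaled by library size alone, the split of higher and lower calls was 12 and 0 at D16, 5 and 1 for the difference at D16 and 34 and 2 for the difference at D30. The 2 interaction contrasts share the D4 and 10.5 dpp libraries. Of the 6 tested type 2 cytokine genes, of which Il4, Il9 and Il13 are made by lymphoid and mast cells, 0 were called at D4 and D16. At D30 Il13 was lower (0.0252 to 0.253 CPM against 0.926 to 2.05 CPM at 36.5 dpp, log2 fold change -4.09, SE 0.74, adjusted p = 0.000128, and -3.45 without 36.5 dpp replicate 1), as was Il9 (0.0756 to 0.226 CPM against 0.334 to 0.356 CPM, log2 fold change -1.60, adjusted p = 0.0176), a call lost without either library of 36.5 dpp (adjusted p = 0.0767 and 0.0667). The lymphocyte markers summed to 2.95 to 5.63 CPM at D30 and to 11.6 to 21.9 CPM at 36.5 dpp, where Cd3d made up 9.31 to 18.9 CPM while Cd8a and Ncr1 were at the floor of 3 reads or fewer. Of 6 tested other cytokine genes, Il15, which natural killer cells need, was higher at D30 (1.79, SE 0.55, adjusted p = 0.00857, and 0.0693 without 36.5 dpp replicate 1).

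Freezing is a contrast that the choice of members did not use. With frozen and fresh tissue compared within 6.5 dpp and D30 (4 libraries each), edgeR called 0 of the 10 members and 0 (0%) of the 18896 genes tested. At an unadjusted p under 0.05 edgeR had 407 genes (2.15%) and DESeq2 586, and DESeq2 called 1 gene, which was no member. Il33 differed by a log2 value of 0.03 (SE 0.39, adjusted p = 0.986) between frozen and fresh tissue. Il6 was the single member with an unadjusted p under 0.05 (log2 difference 3.66, SE 0.86, edgeR adjusted p = 0.904), and without the frozen D30 library Il6 no longer passed the filter on low counts. With 1 fresh library at 6.5 dpp and 1 frozen library at D30, the precision is low, and the standard errors of the 10 members ran from 0.34 to 1.06.

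The 5 genes whose profile over the 21 libraries was most like that of Il33 were Dact2, C7, Sowahd, Gda and Ccn5, with a Pearson r of log2 CPM of 0.976, 0.975, 0.961, 0.960 and 0.955. C7, a component of complement, had a mean of 3.81 CPM at 10.5 dpp, 42.9 CPM at 22.5 dpp, 84.3 CPM at D4 and 213 CPM at D30. Ccn5, of the CCN family of matrix proteins, had 0.144 CPM at 10.5 dpp, 3.63 CPM at 22.5 dpp, 12.4 CPM at D4 and 22.9 CPM at D30. Dact2, a modulator of TGF-β and Wnt signalling, had 8.38, 26.0, 27.7 and 39.4 CPM. In all 5 the mean was higher at 22.5 dpp than at 10.5 dpp and was highest at D30, as for Il33. The genes were picked for this likeness, so the shared order is no separate result. The 21 points share 7 stages and are not independent, so the r values describe this set of libraries.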

How the data were processed

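Gene expression was measured by stranded poly(A) RNA sequencing with single reads of 50 bases. The authors deposited raw read counts per gene in 1 table of 23 libraries and 27466 genes, which per the labels and the study's methods were made with bcl2fastq 2.17.1.14, STAR 2.7.3a and HTSeq 0.12.4. The strand setting of the counting is not given in the sources used here. The labels do not say whether replicates came from separate animals, so p-values measure only the spread between these libraries. CPM are counts scaled to the library total, without TMM factors, and intervals and floors (3 counts) cover counting error only.

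Fold changes were fitted to the counts of 21 libraries in R 4.3.3 with edgeR 4.0.16 (7 stages, filterByExpr, TMM, quasi-likelihood F test, Benjamini-Hochberg over the 19255 genes tested). Standard errors were taken from the log2 fold change and the F statistic. Partner genes, those of 8 lists of receptors, processing and signalling genes and other cytokines, were called at 2-fold or more with an adjusted p under 0.05. Freezing was tested in the 8 libraries of 6.5 dpp and D30 with stage as a covariate. The members and lists were chosen with earlier results of these data known. Named were all 10 members, the members' receptors, the genes called in a culture comparison (at most 4 per list and comparison, by smallest p), and the 5 genes with the highest correlation with Il33 (log2 CPM, prior count 2). Alternatives were DESeq2 1.42.0, other scalings, filters, thresholds and sample sets, a replicate block and leaving out each library. Scripts were tested on simulated data.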

Additional observations from a re-analysis of the deposited data

Results flagged for a closer look

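Within groups of 4 libraries, 3 values stood apart by Dixon's criterion, which chance meets in about 1 in 20 groups. Il6 had 0.0487 CPM in 6.5 dpp CSF replicate 2, which is 2 reads where the other 3 libraries had 0. Il6 had 1.51 CPM in D30 CSF replicate 1. Il18 had 12.2 CPM in 6.5 dpp CSF replicate 3, where the overlapping gene Tex12 had 55.5 CPM against 12.5 and 23.6 CPM in the other CSF libraries. The part of Tex12 reads in this Il18 count was not tested.

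By the edgeR interaction test, the culture effect at D16 differed from that at D4 on the log2 scale by 1.11 for Casp8, 2.07 for Gsdmd, -2.06 for Irak3, 2.53 for Ltb and 2.02 for Csf1r. At D30 the difference from D4 was 5.03 for Il1rn, 1.49 for Il1rl2 and -2.24 for Sigirr among receptors and antagonists of the IL-1 family. It was 2.04 for Casp4, 2.75 for Casp8, 2.05 for Pycard and 2.65 for Gsdmd among inflammasome genes, and 2.15 for Irak1, -1.99 for Irak3 and 1.82 for Traf6 among adaptors. In the IL-6 family it was 1.24 for Il6ra, 2.43 for Il6st, 8.10 for Osm and 2.13 for Socs3. In the TNF list it was 1.76 for Tnfrsf1a, 1.19 for Tnfrsf1b, 1.30 for Adam17 and 1.76 for Ltb. It was 1.07 for Csf1, 3.37 for Csf1r, 2.87 for Ptprz1 and 2.11 for Il15. The values of Il1rn, Osm and Ptprz1 rest on 0 to 3 reads at 36.5 dpp and are no bounds.

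For 3 members every library moved one way at one stage and the opposite way at another, which was not tested. The log2 fold change of Il1rl1 was -0.95 at D4 and 1.32 at D30, that of Il1a was 1.88 at D4 and -0.92 at D16, and that of Il11 was 1.43 at D4 and -3.56 at D30.

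The library labelled 6.5 dpp fresh replicate 1, which entered no comparison, had 8.21 CPM of Il33 and 1.91 CPM of Il1a, above the highest 6.5 dpp library used (0.271 CPM and 0.146 CPM).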

How the results depend on the processing

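At thresholds of 4-fold and an adjusted p of at most 0.001, the partner genes called numbered 2 of 9 at D4, 2 of 12 at D16, 18 of 36 at D30, 0 of 7 for the difference at D16 and 9 of 30 for that at D30. With only the groups compared in the fit, the counts were 5 at D16 and 13 for the difference at D16, and with 6.5 dpp fresh replicate 1 kept the latter was 2. Leaving out 1 library in turn gave 7 to 9 at D4, 7 to 16 at D16, 32 to 37 at D30, 2 to 9 for the difference at D16 and 20 to 31 for that at D30. The count at D16 was 7 without 22.5 dpp replicate 1 or D16 replicate 2. The difference at D16 had 2 without D16 replicate 2, and 4 without 10.5 dpp replicate 2, 22.5 dpp replicate 1, 22.5 dpp replicate 3 or D4 replicate 1. Leaving out 6.5 dpp CSF replicate 3 was chosen after seeing the data and gave 12, 15, 37, 9 and 31 calls. Of 51 calls of named partner genes, 32 held under every alternative and 19 were lost under 1 or more. The cause of these changes was not tested.

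Replicate numbers were not taken as pairs in the main fit. In their deviations from the group means, same-numbered libraries correlated at 0.20, 0.03 and -0.01 for D4 and 10.5 dpp. The values were 0.52 and 0.66 for D16 and 22.5 dpp, and -0.23 and -0.47 for D30 and 36.5 dpp. Not every library correlated best with its own number. D16 and 36.5 dpp have 2 libraries each, whose deviations mirror each other, so this check cannot exclude a pairing. With the replicate block the counts were 9, 13, 35, 6 and 29.

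Of the members' log2 fold changes of culture over age-matched testis under the alternatives, 422 moved by less than the replicate spread, 38 by more, and 0 of those counted as higher or lower changed sign. Steps between ages and culture days are not among these. With fresh libraries only, 1 at 6.5 dpp, Il1rl1 at 10.5 over 6.5 dpp had -0.41 (0.41 before). At D4 over 6.5 dpp Il1a had 3.81 (3.21 before). There Il6 had 6.47 (4.19 before) and Il1b 5.16 (-0.18 before), both over 0 reads. Low counts limit Il6 and Tnf: the fitted value of Il6 was 3.35 at D4 without 10.5 dpp replicate 3 (3.99 with it) and 1.48 at D16 without D16 replicate 1 (2.31 with it). That of Tnf at D30 was 3.51 and 8.38 without either 36.5 dpp library.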
